A study of Mus musculus with 39 samples.

Results

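The comparison set mice given a high fat high sucrose diet together with 75 µg of KAL-1, an ethano-botanical formulation (HF75), against mice given that diet alone (HFC). It used the 6 HF75 and 6 HFC arrays of Weeks 3, 6, 9, 12, 15 and 18, which are 12 of the 39 arrays of the series, with 1 array per diet and week and the HF75 array paired with the HFC array of its week. All were C57BL/6J mice, divided into groups on weaning at 3 to 4 weeks of age. Fat supplied 60% of the energy of the diet that both groups ate, and the groups differed in the formulation. Per the labels a group held 30 animals, 5 animals per group were killed every 3 weeks, and RNA came from tissue labelled as brown fat infiltrating macrophages (SVCs, stromal vascular cells). The labels do not say how many animals contributed to the RNA of an array, so the replicates of the comparison are the 6 weeks, and every error given as SE is limma's moderated standard error, which draws a gene's own spread over weeks towards that of all probes. The effect of the formulation on gene expression in these cells was the question the comparison addressed.

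Brown fat burns lipid for heat through UCP1, a proton channel of the inner mitochondrial membrane. Its stromal vascular fraction is what is left of the tissue once the fat cells have been removed, and it holds macrophages, other leukocytes, endothelial cells and fibroblasts. On a high fat diet macrophages and other leukocytes accumulate in fat depots and cytokine expression there increases.

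No gene passed the test across the 6 weeks. The differences were large within single weeks, and several gene groups had opposite signs at different weeks. Immediate early, cytokine, chemokine and neutrophil genes were higher in HF75 at Week 6 and lower at Week 15. The mean level of each of these groups was lowest at Week 6 among the HFC arrays and at Week 15 among the HF75 arrays. Brown fat and skeletal muscle genes were higher in HF75 at Week 12, where the HFC array held their lowest mean levels of the 12 arrays (-2.72 and -1.7). Of the 24224 probes tested, 210 (0.867%) were lower in HF75 at every week and 160 (0.661%) were higher at every week. Among the lower were the clock gene Nr1d1, at its brightest probe, and the transcriptional inhibitor Id2.

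Values are log2 levels relative to the 75th percentile of the array (level 0), so a difference of 1 is 2-fold. The 12 arrays did not have the same brightness. The 75th percentile of intensity ran from 46.2 to 950 on the HFC arrays and from 21.8 to 735 on the HF75 arrays, and between 37.8% and 91.6% of spots were well above background. The HFC array of Week 12 had 11.1% of its spots marked as outliers, against at most 0.130% on each of the other 11, and these spots were left out. Only the arrays of Weeks 12 and 15 were scanned on the same day as their partner, and the 12 arrays lay on 12 slides, so slide and diet cannot be told apart within a week.

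Several arrays stood apart from the rest. The HFC arrays of Week 6 and Week 9 and the HF75 array of Week 15 correlated with each other at 0.946 to 0.963 over 22726 probes, and with the remaining 9 arrays at 0.671 to 0.862. The title of the HFC Week 9 array holds the letters BAT and that of the HF75 Week 15 array the letters BA, where the other 10 titles have B-A or B_A; the title of the HFC Week 6 array does not differ in this way. The HF75 array of Week 18 correlated with the other 11 at 0.671 to 0.895. The HFC array of Week 12 was the 1 array on which Ucp1 lay below the 75th percentile.

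**Figure D1:**
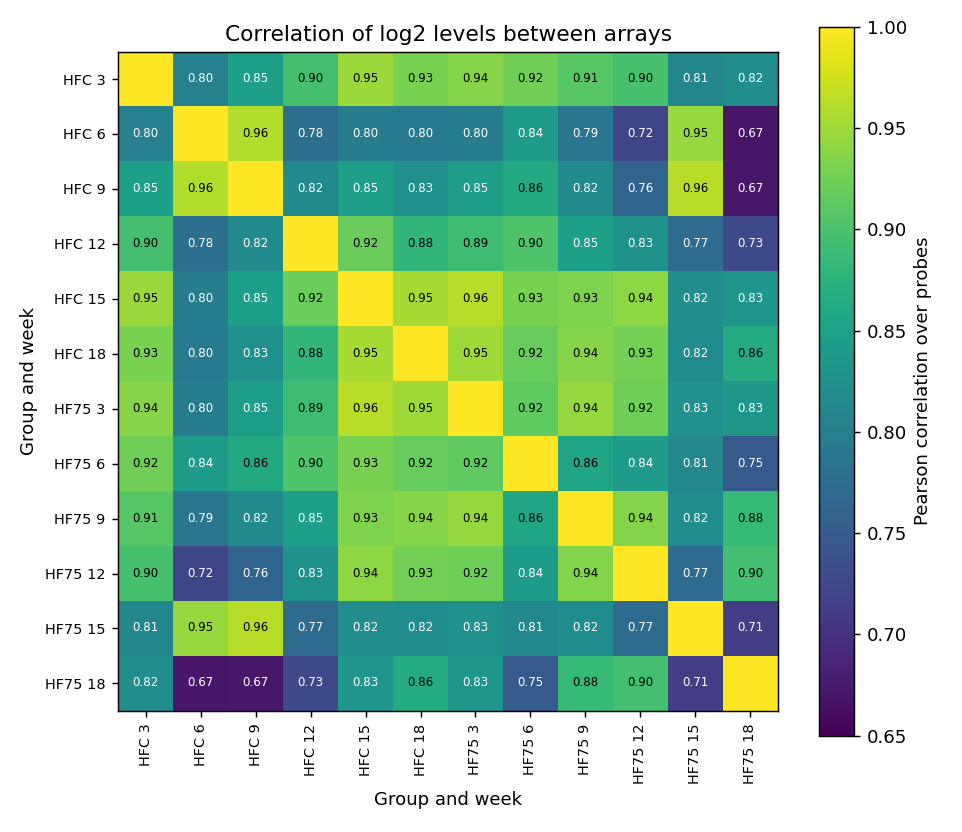
Pearson correlation of log2 levels over 22726 probes for each pair of the 12 arrays, named by group and week on both axes. The HFC arrays of Weeks 6 and 9 and the HF75 array of Week 15 correlate at 0.946 or more with each other and at 0.862 or less with the remaining 9.

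The labelled cell type was only partly borne out by its markers. Adgre1, which encodes the macrophage surface protein F4/80, lay above the 75th percentile on all 12 arrays (0.33 to 3.71). Csf1r, the receptor for macrophage colony-stimulating factor, did so on 9 arrays and the lysosomal glycoprotein gene Cd68 on 7. Fat cell transcripts were also abundant, with Adipoq (adiponectin) between 2.23 and 6.51 on the 12 arrays and Ucp1 between 5.26 and 8.55 on the 11 arrays other than HFC Week 12. Acta1, skeletal muscle actin, was above the 75th percentile on all 12. In bulk RNA such as this, fewer cells of a type and less RNA per cell cannot be told apart. The B cell gene Cd79a and the leptin gene Lep were well above background on at most 2 and 5 of the 12 arrays and were not tested.

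Over the 6 weeks, 24224 probes of 17818 genes were tested with limma, and 0 passed at a Benjamini-Hochberg adjusted p of 0.05 (0.0% of those tested), every adjusted p being 0.9997 or more. Before adjustment, 838 probes that were higher in HF75 (3.46%) and 188 that were lower (0.776%) had p under 0.05. Each difference is over 6 weekly pairs unless another number is given. The median standard error of a difference was 0.475 on the log2 scale. The probes with p under 0.05 lay mostly among the dim ones. Of the 8075 dimmest probes 514 were higher and 102 lower, and of the 8075 brightest 55 were higher and 16 lower. Every gene named below therefore failed the test, and its p is given unadjusted.

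The same sign at all 6 weeks was found for 160 probes that were higher (0.661%) and 210 that were lower (0.867%) in HF75. In 9 of the tested probes the HF75 levels did not overlap the HFC levels, 5 lower (0.0206%) and 4 higher (0.0165%). They are named because they are few, after their values were seen. Lower were Slc39a14, Abcc4, Pms2, Golim4 and Pde2a, which encode a zinc and iron importer, a cyclic nucleotide efflux pump, a mismatch repair protein, a Golgi membrane protein and a cyclic nucleotide phosphodiesterase. Slc39a14, Pms2 and Golim4 were dim, with HF75 medians of -3.75, -3.32 and -2.65. The first 2 were well above background on 4 HFC and 2 HF75 arrays, and Golim4 on 5 and 3. Slc39a14, Golim4 and Pde2a had 1, 2 and 1 other tested probes, whose differences are not given here. Abcc4 ran from -0.24 to 0.42 on the HFC arrays (median 0.05) and from -1.61 to -0.25 on the HF75 arrays (median -0.94), a difference of -1.0 ± 0.36 (SE, limma p = 0.0241). Its second probe gave -0.23 ± 0.39. Pde2a lay at 0.38 to 1.63 on HFC and -0.84 to 0.38 on HF75 arrays, meeting at 2 decimals (-0.78 ± 0.35, limma p = 0.0514). The higher probes were those of 4930579G24Rik, Vmn2r63, Olfr609 and Qprt (5 pairs), with differences from 1.13 to 1.65 and HF75 medians between -3.51 and -0.81, all below the 75th percentile.

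Among genes well above background on at least 10 arrays, those with the smallest p that were lower in HF75 at 5 or 6 weeks included Nr1d1, Esyt1, LOC100038980, Hjurp, Arhgap1, Chst1, Stk19, Abcc4 and Id2. Nr1d1 encodes REV-ERBα, a nuclear receptor that represses core clock and lipid genes. Its levels were 0.20, 1.07, -0.00, 0.49, -0.03 and -0.85 on the HFC arrays of Weeks 3 to 18 and -0.66, -0.45, -1.06, -1.08, -0.20 and -2.28 on the HF75 arrays. HF75 was below HFC at all 6 weeks, though the ranges of the groups overlapped, and the gap was smallest at Week 15 (-0.17) and largest at Week 12 (-1.57). The mean difference was -1.1 ± 0.34 (SE, limma p = 0.0108), or 0.466-fold. A pair of dimmer Nr1d1 probes, well above background on 8 and 7 arrays, went the other way at 0.67 ± 0.47 and 1.13 ± 0.71.

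Id2 encodes a helix-loop-helix protein that blocks the DNA binding of E proteins and is expressed in fat cell precursors and innate lymphocytes. Its levels ran from 1.75 to 2.85 on HFC arrays (median 2.02) and from 0.93 to 1.78 on HF75 arrays (median 1.36). HF75 was lower at all 6 weeks, from -0.28 at Week 3 to -1.06 at Week 6, for a mean of -0.82 ± 0.31 (limma p = 0.0275). The second Id2 probe gave -0.88 ± 0.36, in the same direction.

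Esyt1, a tether between the endoplasmic reticulum and the plasma membrane, was lower at all 6 weeks, between -1.43 and -0.50. Stk19, a nuclear protein once classed as a kinase, was lower at 5 weeks and 0.38 higher at Week 15. It averaged -1.22 ± 0.43, and its other probes gave -1.01 ± 0.41 and -1.37 ± 0.46. Hjurp (the chaperone that loads the centromeric histone), Arhgap1 (a GTPase-activating protein) and Chst1 (a keratan sulfate sulfotransferase) were lower at all 6 weeks, with means of -0.94, -1.06 and -0.98. LOC100038980 averaged -1.25 and was higher at Week 15 alone. All probes tested of Stk19 and Id2 thus lay on the lower side, whereas those of Nr1d1 were split.

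**Figure D2:**
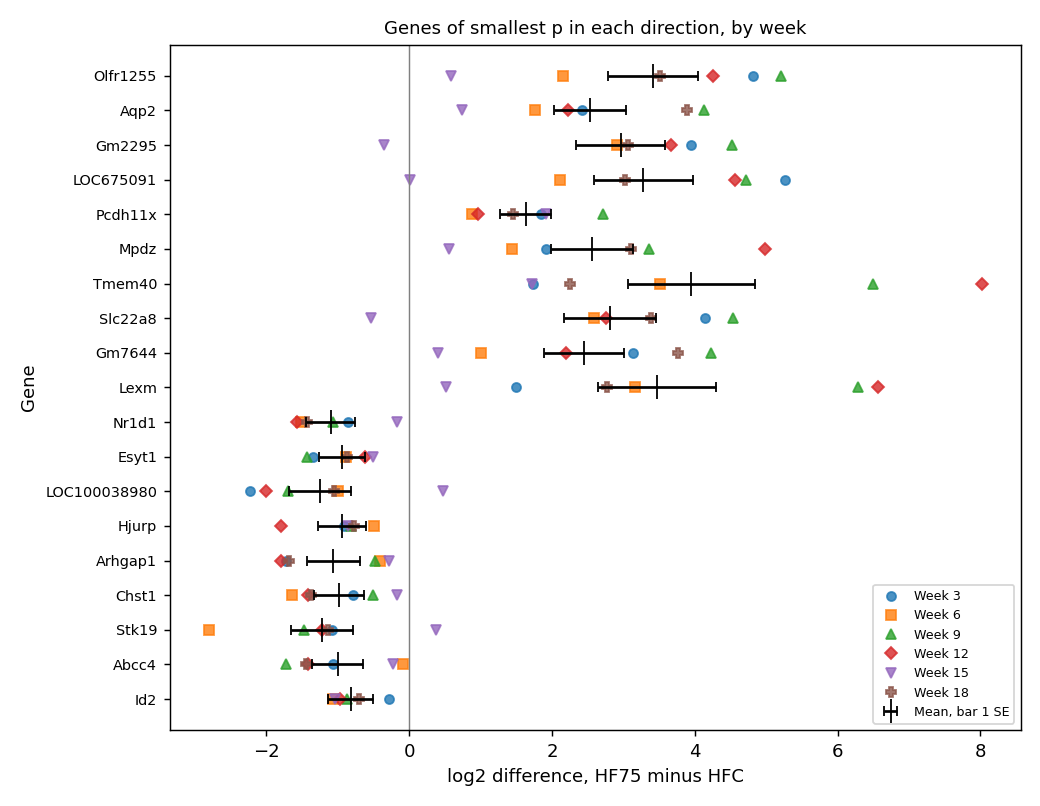
Weekly log2 differences (HF75 minus HFC, 1 symbol per week) of the 10 higher and 9 lower genes named by smallest p among genes well above background on at least 10 of 12 arrays. Black bars are the mean over 6 weeks ± 1 SE, and none of the 19 genes passed at an adjusted p of 0.05. The Week 15 symbol lies nearest to 0 or past it for 9 of the 10 higher genes.

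The clock list, with Nr1d1 counted among its members, leaned to the lower side. Of 15 members measured of 19, 13 were below 0 and 2 above, with a median of -0.38 against -0.05 for all probes tested, and 54.5% of all probes were below 0. Nr1d1 was the 1 member with p under 0.05. Cry2, a repressor of the clock's positive limb, gave -0.79 ± 0.35 (limma p = 0.0556) and was lower at 5 weeks. Per2, another repressor of that limb, gave -0.86 ± 0.51, with -2.80 at Week 9 and 0.84 at Week 15. Dbp and Hlf, output factors of the clock, were the members above 0, at 0.12 and 0.11. By week the list averaged -0.69, -0.22, -0.60, -1.01, 0.50 and -0.34, so that Week 15 was again the exception. The labels give a light and dark cycle of 12 hours each, and the hour of killing is not given in the sources used here.

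Genes of the endoplasmic reticulum stress response showed a like lean, with 19 of 22 below 0 and a median of -0.34; none had p under 0.05. Hspa5, which encodes the chaperone BiP, lay at 4.86, 4.90, 4.87, 6.01, 5.82 and 4.49 on the HFC arrays of Weeks 3 to 18 and at 3.98, 5.03, 3.57, 4.91, 4.97 and 3.94 on the HF75 arrays. It was lower in HF75 at 5 of 6 weeks (-0.76 ± 0.33, limma p = 0.0516), and the groups overlapped. The protein disulfide isomerase gene Pdia6 was lower at all 6 weeks, between -1.38 and -0.02 (-0.71 ± 0.34). Pdia3, a related isomerase read at a dim probe, was 1.53 ± 0.70 higher. In the list of glucose uptake and insulin signalling 17 of 22 were below 0, with a median of -0.17. Pck1, the enzyme of glyceroneogenesis in fat, was its highest member at 1.45 ± 0.66, and on the arrays where it was saturated (2 HFC and 1 HF75) its level is only a lower bound.

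The 10 genes with the smallest p that were higher in HF75 at 5 or 6 weeks were Olfr1255, Aqp2, Gm2295, LOC675091, Pcdh11x, Mpdz, Tmem40, Slc22a8, Gm7644 and Lexm. Most are not genes that brown fat or its leukocytes are known for: Olfr1255 is an odorant receptor, Aqp2 the water channel of the renal collecting duct, Slc22a8 a renal organic anion transporter and Pcdh11x a neuronal protocadherin. Mean differences ran from 1.63 ± 0.36 for Pcdh11x (limma p = 0.00182) to 3.95 ± 0.89 for Tmem40 (limma p = 0.00192). The smallest p of all probes belonged to Gpr179, an orphan receptor of retinal bipolar cells (2.69 ± 0.47, limma p = 0.000352), followed by Olfr1255 (3.42 ± 0.63, limma p = 0.000504) and the placental hormone gene Prl2a1 (3.33 ± 0.62, limma p = 0.000547), which was well above background on 1 of 6 HFC arrays.

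Aqp2 shows the form of these differences. Its levels were -0.41, -2.46, -2.81, -2.44, -2.47 and -0.10 on the HFC arrays of Weeks 3 to 18 and 2.01, -0.70, 1.32, -0.22, -1.74 and 3.80 on the HF75 arrays. HF75 was higher at all 6 weeks, most at Week 9 (4.13) and least at Week 15 (0.74), and the highest HF75 level was at Week 18. Mpdz, a scaffold with many PDZ domains, was 2.56 ± 0.58 higher at this probe and 0.35 ± 0.54 at its other probe, which was well above background on all 12 arrays. Tmem40 likewise gave 1.05 ± 1.24 at its other probe.

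The same pattern held across a receptor family picked out after these values were seen. Of 1070 odorant receptor genes on the array, 181 passed the filter on low values, and 177 of these were above 0, against 45.5% of all probes. Their median difference was 1.44, with 71 at p under 0.05 on the higher side (3.46% of all probes) and 0 on the lower (0.776% of all probes). The median differences at Weeks 3 to 18 were -0.03, 0.39, 3.35, 3.31, -0.37 and 2.66. Of 28 vomeronasal receptor genes 26 were above 0, with a median of 1.39. These genes were dim, with a median level of -3.16 for the odorant receptors. At Weeks 6, 9 and 12 the HF75 arrays were much dimmer than their partners. Their 75th percentiles were 172 against 748, 21.8 against 918 and 65.9 against 950. At Week 6 the odorant receptor difference was nonetheless only 0.39. At Week 15 the HF75 array was the brighter one (735 against 221), and at Week 18 both were alike (44.7 and 46.2). Restricting the odorant receptors to the 22 well above background on all 12 arrays left the median at 1.60, and a different background correction (normexp) gave 1.18. The part of array brightness in the difference was not tested.

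**Figure D3:**
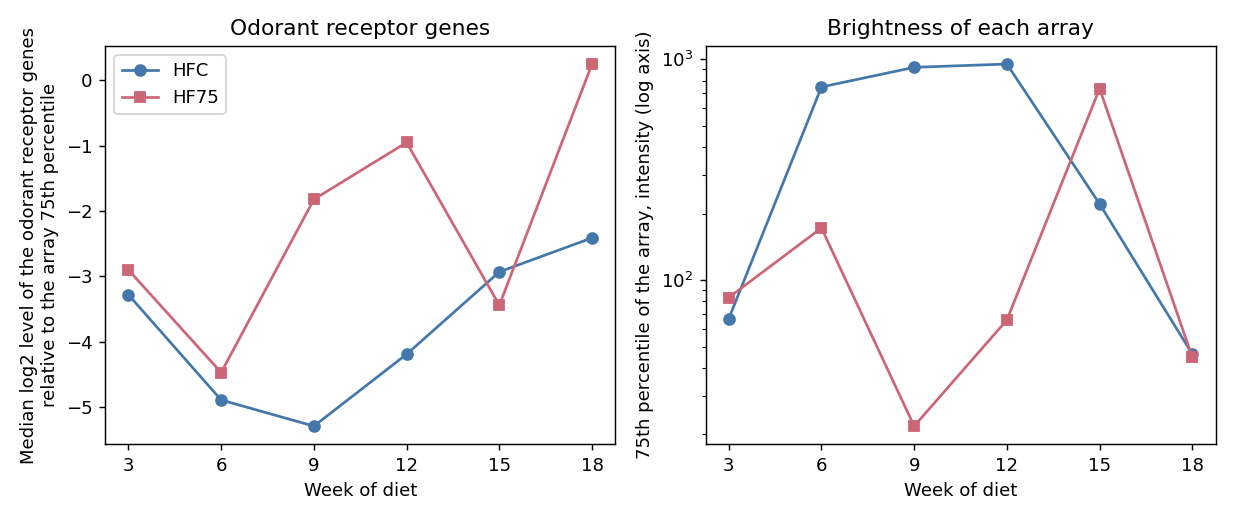
Left, median log2 level of the 181 tested odorant receptor genes on each array, and right, the 75th percentile of intensity of the same arrays on a log axis, by week for HFC (circles) and HF75 (squares). The HF75 median is furthest above HFC at Weeks 9, 12 and 18. The HF75 array is much the dimmer one at Weeks 6, 9 and 12 and about as bright at Week 18.

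Between 27.7% and 51.4% of probes differed at least 2-fold between the 2 arrays of a week, counting probes well above background on either array. Week 3 had the fewest, with 3726 higher and 2263 lower of 21586, and Week 15 the most, with 8162 higher and 7896 lower of 31269. With 1 array per diet there is no replicate check within a week and no test. Over 22726 probes the differences of Week 6 and Week 9 correlated at 0.53, whereas those of Week 15 correlated at -0.795 with Week 6 and at -0.648 with Week 9. Those of Weeks 9 and 12, 12 and 18, and 9 and 18 correlated at 0.399, 0.352 and 0.332, and the remaining 9 pairs of weeks lay between -0.0991 and 0.162. These are descriptions across probes, and Weeks 6, 9 and 15 are the weeks of the 3 arrays that stood apart. Of the probes tested over all weeks, 25.5% were at least 2-fold higher and 21.3% at least 2-fold lower at Week 6, 28.0% and 21.8% at Week 9, 20.8% and 21.5% at Week 12, 23.2% and 25.8% at Week 15, 18.6% and 22.7% at Week 18, and 14.0% and 11.3% at Week 3. The counts of list members below are to be read against these shares.

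**Figure D4:**
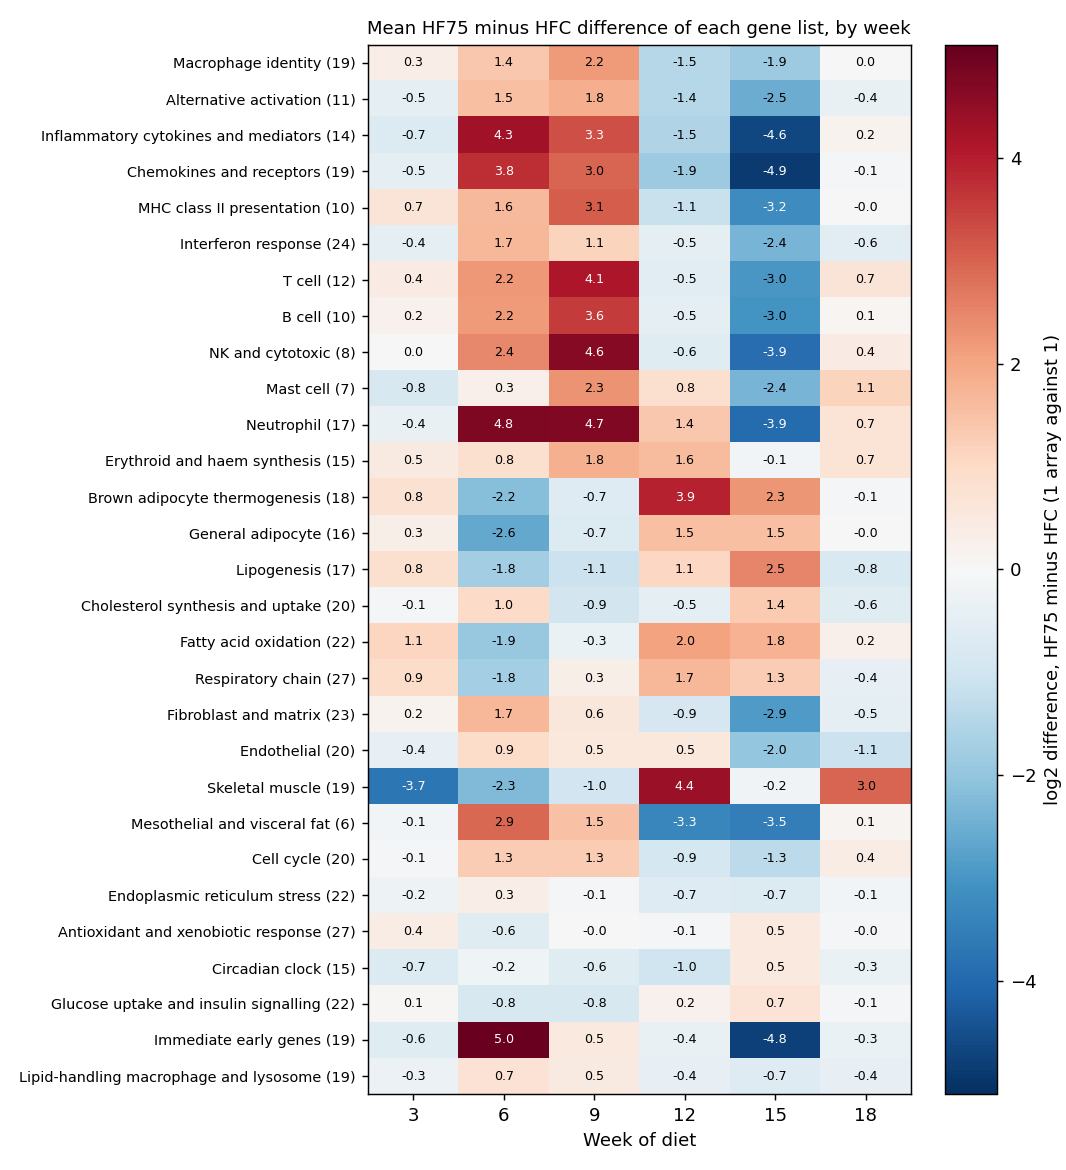
Mean log2 difference (HF75 minus HFC) of the measured members of each of the 29 gene lists at each week, 1 array against 1, with the number of members measured in parentheses. Immune lists are red at Weeks 6 and 9 and blue at Week 15, the brown adipocyte and skeletal muscle lists are reddest at Week 12 and most lists are pale at Weeks 3 and 18.

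The widest swing was that of the immediate early genes, which are induced within minutes by serum, cAMP, stress or tissue handling. All 19 measured were at least 2-fold higher in HF75 at Week 6 and all 19 at least 2-fold lower at Week 15, with list means of 5.05 and -4.77; at the other weeks the mean lay between -0.61 and 0.48. Fos, a subunit of the AP-1 transcription factor, was the gene furthest above 0 at Week 6 and furthest below 0 at Week 15 among probes well above background on both arrays. Its levels were 4.54, -4.53, 0.73, 4.78, 5.97 and 3.42 on the HFC arrays of Weeks 3 to 18 and 3.96, 5.76, 2.52, 4.81, -3.86 and 3.88 on the HF75 arrays. The HFC array of Week 6 and the HF75 array of Week 15 were thus the low ones, giving differences of 10.29 and -9.82, and at Weeks 3, 12 and 18 the diets lay within 0.57. Over the 6 weeks the difference was 0.36 ± 2.04 (limma p = 0.863). Atf3 and Egr2, further transcription factors of this class, gave 7.98 and 7.72 at Week 6 and -8.18 and -7.01 at Week 15.

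Promoters of 3 of these genes are shown because the group moved together at both weeks. Each runs 5′ to 3′ on the strand of the gene, from 250 bases before to 50 bases after its start, from RefSeq on GRCm38.p6; capitals mark TGACG, the core of the cAMP response element, or its reverse complement CGTCA.
Fos (chr12:85473640-85473939, plus strand): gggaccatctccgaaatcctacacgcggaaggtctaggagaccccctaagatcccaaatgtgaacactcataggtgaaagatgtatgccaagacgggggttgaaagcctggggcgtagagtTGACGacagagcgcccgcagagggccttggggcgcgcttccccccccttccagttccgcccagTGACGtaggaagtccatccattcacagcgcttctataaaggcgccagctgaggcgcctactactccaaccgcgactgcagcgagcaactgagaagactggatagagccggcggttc
Nr4a1 (chr15:101266596-101266895, plus strand): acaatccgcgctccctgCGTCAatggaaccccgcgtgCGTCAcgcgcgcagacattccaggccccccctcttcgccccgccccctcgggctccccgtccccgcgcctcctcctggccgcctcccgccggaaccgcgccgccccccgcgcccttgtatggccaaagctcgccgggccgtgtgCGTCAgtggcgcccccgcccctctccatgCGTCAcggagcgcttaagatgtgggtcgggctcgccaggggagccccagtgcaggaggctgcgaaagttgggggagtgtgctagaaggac
Dusp1 (chr17:26508423-26508722, minus strand): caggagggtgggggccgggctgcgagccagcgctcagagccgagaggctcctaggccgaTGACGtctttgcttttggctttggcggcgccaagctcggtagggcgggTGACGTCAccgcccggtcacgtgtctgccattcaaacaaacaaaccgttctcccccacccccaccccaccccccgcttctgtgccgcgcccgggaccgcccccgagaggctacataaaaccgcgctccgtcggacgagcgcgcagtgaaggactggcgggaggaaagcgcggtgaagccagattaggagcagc

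Nr4a1, an orphan nuclear receptor, gave 5.12 at Week 6 and -4.33 at Week 15, and Dusp1, a phosphatase of MAP kinases, gave 4.14 and -2.39. Of the 16 immediate early genes matched to the promoter table, 12 held TGACG on either strand in at least 1 window, against 23.0% of all 27025 symbols, and 2 held the full palindrome TGACGTCA, which contains the core on both strands (2.03% of symbols). A match of letters is a description of the window and was not set against the expression values.

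Leukocyte genes followed the same weeks. Of the 17 neutrophil genes measured, 15 were at least 2-fold higher in HF75 at Week 6, all 17 at Week 9 and 7 at Week 12, and 15 were at least 2-fold lower at Week 15. All 17 had a mean difference above 0 and the median was 1.27, the highest of the 29 lists, but 0 had p under 0.05. The median was 0.34 without Week 6, 0.64 without Week 9 and 2.02 without Week 15. S100a8, a subunit of the neutrophil protein calprotectin, lay at 2.35, -3.38, -1.88, 0.11, 3.69 and 4.86 on the HFC arrays of Weeks 3 to 18 and at 2.74, 4.28, 4.01, 4.31, -2.67 and 4.94 on the HF75 arrays. At Weeks 3 and 18 the diets differed by 0.39 and 0.07, and over all weeks by 1.98 ± 1.62 (limma p = 0.255). The granule genes Camp and Ltf and the collagenase gene Mmp8 reached 6.46, 7.12 and 8.82 at Week 6.

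Inflammatory cytokines and mediators averaged 4.28 at Week 6, with 14 of 14 at least 2-fold higher, and -4.63 at Week 15, with 12 of 14 at least 2-fold lower. Chemokines and their receptors averaged 3.77 and -4.89, with all 19 lower at Week 15. Genes of MHC class II presentation averaged 3.07 at Week 9, and T cell, B cell and NK cell lists averaged 4.12, 3.56 and 4.64 there. The mean level of the cytokine list was -3.35 on HFC Week 6, -3.16 on HFC Week 9 and -3.56 on HF75 Week 15. On the remaining arrays it lay between -0.52 and 2.04. The chemokine list stood at -3.03, -2.66 and -3.34 on those arrays and between 0.01 and 2.42 on the rest. The MHC class II, T cell, B cell and NK cell lists were also lowest on HFC Week 6, HFC Week 9 and HF75 Week 15. At Week 12 the macrophage, chemokine and cytokine lists were lower in HF75 instead, at -1.46, -1.87 and -1.52. Tnf, a cytokine of activated macrophages, gave -5.49 at Week 12, when its HFC level was 3.29, the highest of the 12 arrays.

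The other leukocyte lists were nearer 0 over the 6 weeks than the neutrophil list. The 19 macrophage identity genes had a median of 0.15 (-0.15 with normexp), and 12 were above 0. Cd68 levels ran from -1.96 to 2.35 on HFC arrays (median -0.26) and from -2.0 to 0.87 on HF75 arrays (median 0.13), overlapping throughout (0.15 ± 0.71, limma p = 0.834). Adgre1 gave 0.32 ± 0.60 and Csf1r -0.14 ± 0.50. Among alternative activation genes 9 of 11 were below 0, with a median of -0.35, and among T cell genes 9 of 12 were above 0, with a median of 0.61. Without Week 15 these medians were -0.05 and 1.46, and without Week 9 they were -0.70 and -0.09. Cd3e, a subunit of the T cell receptor complex, was 2.09 ± 0.65 higher in HF75 (limma p = 0.0119), with -0.34 at Week 15, but Cd3d and Cd3g of the same complex gave 0.11 ± 1.12 and 0.71 ± 0.92. Cd8b1, of the CD8 coreceptor, gave 2.35 ± 0.78 (limma p = 0.0159), and Cd8a 0.82 ± 0.72. Cd3e and Cd8b1 were each well above background on 4 of the 6 HFC arrays. Without the 3 arrays that stood apart and without the week block, the medians of the macrophage and T cell lists were -0.09 and 0.14 and that of the neutrophil list 0.73.

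Genes of brown adipocyte thermogenesis had their highest mean at Week 12, at 3.94, with 13 of 18 at least 2-fold higher. Ucp1 lay at 5.26, 6.44, 6.15, -3.18, 6.70 and 6.61 on the HFC arrays of Weeks 3 to 18 and at 7.47, 5.71, 8.55, 6.53, 6.62 and 6.23 on the HF75 arrays. The Week 12 difference of 9.70 came from the HFC array, where Ucp1 stood at -3.18 against 5.26 or more on the other HFC arrays. Without it the weekly differences ran from -0.74 to 2.40. The probe was saturated on 2 HFC arrays and 1 HF75 array, so its level there is a lower bound. Cidea, a lipid droplet protein of brown fat, showed the same shape, with 7.51 at Week 12 and 3.02 or less at the other weeks. At Week 6 the list averaged -2.17, with 14 of 18 at least 2-fold lower in HF75, and at Week 15 it averaged 2.26. Its median over the 6 weeks was 0.55, and it was 0.08 without Week 12, 0.02 without Week 15 and 1.1 without Week 6.

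Fatty acid oxidation genes had a median of 0.55 over the 6 weeks, with 18 of 22 above 0, and respiratory chain genes a median of 0.31, with 22 of 27 above 0, which turned to -0.27 with the normexp background correction. The fatty acid oxidation median was 0.05 with normexp, 0.19 without Week 12, 0.15 without Week 15 and 1.20 without Week 6, and the respiratory chain median was 0.02, 0.16 and 0.85 without those weeks. Acadvl, the first dehydrogenase of long-chain β-oxidation, was the 1 member of the 2 lists with p under 0.05 (1.22 ± 0.52, limma p = 0.0434). It ran from 3.66 to 6.60 on HFC arrays and from 6.13 to 8.27 on HF75 arrays, was higher in HF75 at 5 of 6 weeks, and was saturated on 3 arrays. Acaa2, a thiolase of the same pathway, gave 1.09 ± 0.52 (limma p = 0.0669). At Week 3, where no array stood apart, 13 of 22 oxidation genes and 13 of 27 respiratory chain genes were at least 2-fold higher in HF75 and none of either list at least 2-fold lower. At Week 18 the list means were 0.24 and -0.40.

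Lipogenic genes had the opposite sign at Week 6 (-1.76) and Week 15 (2.50). Elovl6, an elongase of de novo lipogenesis, and Acaca, its rate-limiting carboxylase, were 6.03 and 5.85 higher in HF75 at Week 15, when both stood at their highest level of the HF75 arrays (6.45 and 4.50). The HFC arrays of Weeks 6 and 9 held the highest HFC levels of both genes (4.58 and 4.53 for Elovl6, 2.84 and 3.21 for Acaca). Fasn, fatty acid synthase, gave 1.08 ± 0.58 over all weeks (limma p = 0.100), and Scd1, a desaturase, 0.07 ± 0.76.

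Skeletal muscle genes went opposite ways at different weeks. Of 19 measured, 18 were at least 2-fold lower in HF75 at Week 3 and 18 at Week 6, 15 were at least 2-fold higher at Week 12 and 18 at Week 18. Myh4, the fast myosin heavy chain IIB, lay at 7.06, 6.01, 6.12, -2.86, 3.32 and 0.70 on the HFC arrays of Weeks 3 to 18 and at 1.15, 3.59, 2.36, 3.58, 6.05 and 7.16 on the HF75 arrays. It was the gene furthest below 0 at Week 3 (-5.91) and furthest above 0 at Week 18 (6.46). Its mean difference was 0.59 ± 1.71. Muscle fibres are not among the cells the labels name. Keratin 18 (Krt18), a marker of mesothelium, was highest on the HFC array of Week 12 (4.68, against -1.11 in HF75), where 5 of 6 mesothelial and visceral fat genes measured were at least 2-fold lower in HF75.

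**Figure D5:**
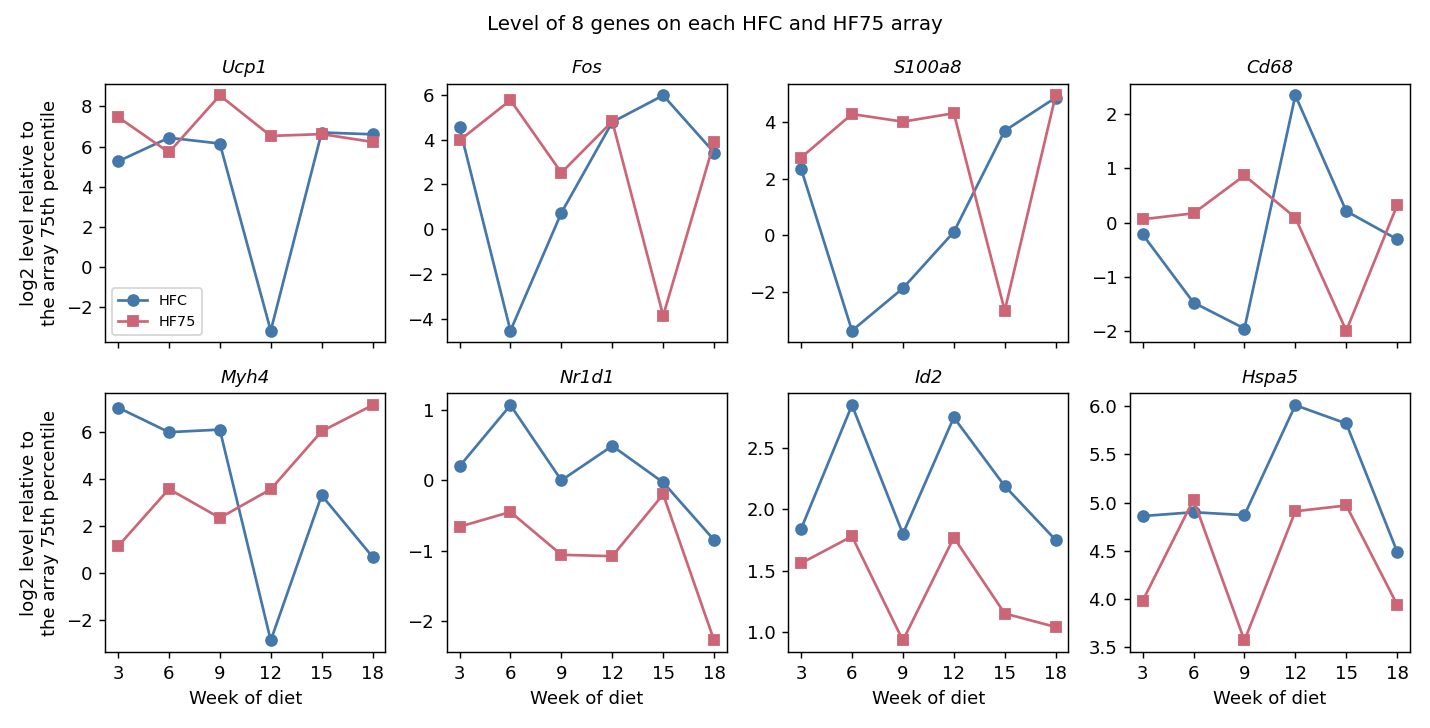
Log2 level relative to the 75th percentile of the array for 8 genes on each HFC (circles) and HF75 (squares) array, by week; each point is 1 array and lines only join points of a group. Ucp1 is lowest on HFC Week 12, Fos and S100a8 are lowest on HFC Week 6 and HF75 Week 15, and Nr1d1 and Id2 are lower in HF75 at all 6 weeks.

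Across the 29 lists 491 genes were measured, and 9 of them (1.83%) had p under 0.05, against 4.24% of all probes tested. Beside Nr1d1, Cd3e, Cd8b1 and Acadvl, described above, they were Alas2, the erythroid enzyme of haem synthesis (2.76 ± 1.11, limma p = 0.0364), Hbb-bh1, an embryonic globin (2.90 ± 1.00), Klrb1c, the NK receptor NK1.1 (1.96 ± 0.67), Bub1, a mitotic checkpoint kinase (2.31 ± 0.96), and Gsta1, a glutathione transferase (1.49 ± 0.62, 5 pairs). Of the 9, Nr1d1 was the 1 that was lower. Hbb-bh1, Klrb1c and Gsta1 were dim, at mean levels of -3.26, -3.25 and -3.66. Their signal exceeded background well on 7, 8 and 6 arrays. Bub1 was the 1 gene with p under 0.05 among the 20 cell cycle genes measured, whose median difference was 0.03.

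Other genes stood furthest from 0 at single weeks. Cyp2e1, a cytochrome of ethanol and fatty acid metabolism, gave -6.98 at Week 6. Vegfa, the main growth factor of blood vessels, gave -4.37 at Week 9. Sult1e1, the oestrogen sulfotransferase, gave -5.31 at Week 12, Aqp5, a water channel of glands, -9.5 at Week 15 and Blm, a DNA helicase, -4.18 at Week 18. On the higher side were Nfasc, an axonal adhesion protein, with 8.82 at Week 9, and Nlrp2, of the NOD-like receptor family, with 10.28 at Week 12. Each rests on 1 array against 1.

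The remaining lists had medians between -0.42 and 0.43. Fibroblast and matrix genes had 17 of 23 below 0 (median -0.28), endothelial genes 16 of 20 (median -0.24), and the 6 mesothelial genes measured were all below 0 (median -0.42). Lipid-handling macrophage and lysosome genes had 12 of 19 below 0 (median -0.20). Erythroid genes had 10 of 15 above 0 (median 0.35). The medians of the B cell, NK and mast cell lists were 0.43, 0.34 and 0.33, those of the interferon, MHC class II, general adipocyte and immediate early lists -0.09, 0.04, -0.10 and -0.13, and those of the cell cycle, cholesterol and antioxidant lists 0.03, 0.02 and 0.00.

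The lower doses and the low fat diet give the setting of the named genes. Nr1d1 lay at -2.25, -0.84, 0.10, -2.82, -0.22 and -1.18 on the arrays of the 5 µg dose (HF5) at Weeks 3 to 18, and at -0.61, 0.07, -0.22, 0.46, -4.36 and -3.28 on those of the 20 µg dose (HF20). On the low fat arrays, which have no Week 6, it lay between -0.60 and 0.91. The levels at both doses overlapped those of HFC and of HF75, and reached lower than either group. Id2 ran from 0.15 to 2.11 on HF5 arrays, from -1.05 to 2.24 on HF20 arrays and from 0.17 to 1.99 on low fat arrays. Fos was also low on single arrays of other diets, at -3.80 on HF5 Week 9, -4.18 on HF20 Week 12 and -2.59 on low fat Week 12. These comparisons share the HFC arrays and were not tested against each other.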

How the data were processed

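Cy3-labelled RNA was hybridised to Agilent mouse arrays of 1 colour. The deposited scanner intensity of each spot is Agilent's processed signal (per the file headers, Feature Extraction 10.5.1.1; the submitters' processing notes name 9.1), background-subtracted by the authors' scanner software. The authors also deposited a table of log2 values, scaled to the 75th percentile in GeneSpring and set against another array of the time point, mostly the low fat one; it served as an alternative. Here, control and outlier-marked spots were dropped, spots of a probe averaged, and log2 values set relative to the array's 75th percentile. Tested were probes with 3 or more complete pairs whose signal exceeded background well on 6 or more arrays (24224 of 40628); in 1498 of these, 1 or more pairs were missing and the fit dropped them. Symbols came from the files, updated through RefSeq accessions for 28136 probes. limma 3.58.1 (R 4.3.3) fitted diet with week as a block, two-sided, with Benjamini-Hochberg adjustment over all probes. The fit was also run on simulated data with independent noise. No simulated array stood apart, so that run does not cover arrays such as these. A gene was read from its tested probe with the highest mean signal. Named were the 10 genes of smallest p in each direction (well above background on 10 arrays, same sign at 5 weeks), the 3 probes of smallest p (1 gene is not reported here), the 3 largest differences in each direction at a week, the extremes and brightest members of 29 lists, and defining markers. The members and lists were chosen with earlier results of these data known. Array number limits the precision. The same-week arrays did not deviate together at every week (correlation of deviations from the group means between -0.681 and 0.424), so week numbers do not establish pairs.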

Additional observations from a re-analysis of the deposited data

Results flagged for a closer look

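Among the levels of the named genes, the defining markers and the list means, 126 groups of 6 arrays were examined for a single array far from the other 5, and 17 (13.5%) held one. Chance gives about 1 in 20 for independent groups. These groups share the same 12 arrays, so the 2 rates cannot be compared directly. No explanation was weighed. All but 3 of these 17 were on the HF75 array of Week 15. There Cd68 stood at -2.0, S100a8 at -2.67 and Scd1 at 6.55. The means of the lists stood at -0.43 for macrophage identity, -0.97 for alternative activation, -3.56 for inflammatory cytokines, -3.34 for chemokines, -2.31 for MHC class II presentation, -3.98 for T cells, -4.06 for B cells, -4.76 for NK cells, -2.30 for the cell cycle, 2.58 for the antioxidant response and 2.55 for glucose uptake and insulin signalling. Ucp1 stood at -3.18 on the HFC array of Week 12, where the nearest HFC array was at 5.26. Mpdz was at 1.1 on the HFC array of Week 18. Esyt1 was at 1.73 on the HF75 array of Week 6.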

How the results depend on the processing

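Under 21 of 22 alternatives 0 probes passed at an adjusted p of 0.05. The exception kept only Weeks 12 and 15, whose arrays shared a scan day, and with 2 pairs and 1 residual degree of freedom called 73 probes, 10 higher and 63 lower. The smallest adjusted p elsewhere was 0.1099, without Week 15. Leaving out 1 week at a time moved the probes at an unadjusted p under 0.05 between 257 and 2170 higher and between 64 and 977 lower (main 838 and 188): without Week 15, 2170 and 977; without Week 9, 257 and 76; without Week 12, 308 and 64; without Week 18, 295 and 152; without Week 6, 1000 and 444; without Week 3, 905 and 73. The fit without the week as a replicate block gave 616 and 284, normexp 122 and 9, the authors' deposited log2 values 424 and 79, probes well above background on all 12 arrays 231 and 82, array weights 1432 and 784, the methods' t-test 300 and 411, and no filter 1038 and 75. Quantile normalization gave 836 and 311, all 39 arrays 756 and 330, and slide as a random block in that fit 778 and 343. Without Weeks 9 and 15 there were 1133 and 287. Leaving out the 3 arrays that stood apart was chosen after seeing the data. It gave 1437 and 510 when Weeks 6, 9 and 15 were dropped, and 395 and 556 when only the arrays were, without the week block. Lower probes outnumbered higher ones in this last fit, under the methods' t-test and with only Weeks 12 and 15. In the remaining fits higher probes outnumbered lower ones, so the side with more probes depended on the fit. The 21 genes named by rank kept their direction under the alternatives run. They were chosen by small p on these same arrays, so this is no independent check. Tmem40 passed with the 2 weeks of a shared scan day (limma adjusted p = 0.0254). The median number of probes at least 2-fold apart in a week was 13397.5, and 7266 where both arrays had to be well above background. Scaling moved the median of all probes from -0.05 to -0.12 (quantile), -0.23 (array median) and 0.09 (normexp). The medians of 9 of 29 lists kept their sign under all alternatives run: alternative activation, neutrophil, erythroid, brown adipocyte, fatty acid oxidation, endothelial, endoplasmic reticulum stress, circadian clock and glucose uptake. The other lists changed sign under at least 1 alternative. The macrophage identity median ran from -0.36 to 0.56 and that of MHC class II from -0.48 to 0.74. Sizes also moved among the 9 lists: the neutrophil median ran from 0.34 to 2.02, that of fatty acid oxidation from 0.05 to 1.37 and that of brown adipocyte genes from 0.02 to 1.1. Why no probe passed was not tested.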
